A study of Mus musculus with 4 samples.

Results

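The loci described are 4 noncoding RNA genes of mouse embryonic stem (mES) cells, Mir290, Malat1, Neat1 and C330002G04Rik, out of 37273 genes of the annotation, of which 9216 are noncoding. They were chosen by their H3K9ac signal, as noncoding genes at or beside very large H3K9ac domains, so that the H3K9ac values below are a description. The loci lie in 3 windows of mm9, which hold 360 bins of 500 bp out of 5309802 bins on chromosomes 1 to 19, X and Y. The cells are labelled as line E14, strain 129P2/OlaHsd, passage 25 to 30, whereas the methods speak of wild type cells taken from blastocysts, grown on feeders and moved to gelatin before use. No treatment or mutation is named, and all 4 libraries share this background. One library each was made with the rabbit polyclonal antibody ab4441 against H3K9ac, with the mouse monoclonal antibodies 13HH3-1A5 (13HH3) and 7G8 against H3K14ac, and from input DNA without antibody. With 1 library per antibody no test was possible, and every interval given is an exact 95% interval that covers counting error only.

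H3K9ac and H3K14ac are acetylations of the tail of histone H3 that mark active promoters and enhancers, and they are placed by acetyl transferases such as GCN5 and PCAF. Mir290 is the first hairpin of the miR-290 cluster, the most abundant microRNA family of undifferentiated mouse ES cells, whose members promote the passage from G1 to S phase. Malat1 is an abundant RNA of nuclear speckles, and Neat1 is the scaffold of paraspeckles, nuclear bodies that need its long transcript. The pair lies side by side on the same strand of chromosome 19. C330002G04Rik is annotated as a lincRNA. Noncoding genes of this kind can be transcribed as strongly as any coding gene, and a promoter or enhancer near them is acetylated in the same way.

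The hairpins of the miR-290 cluster, Mir290, Mir291a, Mir292, Mir291b, Mir293, Mir294 and Mir295, lie at chr7:3218627-3220842 on the plus strand. RefSeq (GRCm38.p6) gave 13 mature sequences for the 7 hairpins, and each matched its mm9 hairpin exactly at 1 place. The 6 mature sequences of the 3p arm are shown because the seed, in capitals (bases 2 to 8), pairs with target RNAs and groups the microRNAs (miR-292a-3p is not shown):
mmu-miR-291a-3p: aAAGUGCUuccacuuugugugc
mmu-miR-294-3p: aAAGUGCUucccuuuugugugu
mmu-miR-295-3p: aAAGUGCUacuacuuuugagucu
mmu-miR-290a-3p: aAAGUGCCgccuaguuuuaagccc
mmu-miR-291b-3p: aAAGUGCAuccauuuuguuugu
mmu-miR-293-3p: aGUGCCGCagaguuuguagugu
The first 3 share the seed AAGUGCU, and miR-290a-3p and miR-291b-3p differ from it in the last base only. The seed of miR-293-3p, GUGCCGC, is a different one. On the 5p arm, miR-290a, miR-292a and miR-293 share CUCAAAC, and miR-291a and miR-291b share AUCAAAG.

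The genomic stretches on which the results turn were read from mm9. Capitals mark the mature arms of miR-291a in the first stretch and the first 50 transcribed bases in the Malat1 promoter. In all others they mark matches, on either strand, to a TATA box with the letters TATAAA, an octamer with ATGCAAAT, a CCAAT box, a GC box with GGGCGG or an E box with CACGTG. None of these motifs overlapped another in the stretches shown. The first is the 300 bases of the hairpin peak with the most H3K9ac tags, chr7:3218771-3219070, plus strand:
Mir290 hairpins: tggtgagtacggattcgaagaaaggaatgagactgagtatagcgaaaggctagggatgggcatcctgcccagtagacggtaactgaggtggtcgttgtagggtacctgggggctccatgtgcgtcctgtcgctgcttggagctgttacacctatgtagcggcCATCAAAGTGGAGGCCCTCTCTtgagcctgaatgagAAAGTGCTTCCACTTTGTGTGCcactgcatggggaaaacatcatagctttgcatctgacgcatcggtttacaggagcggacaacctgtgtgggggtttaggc
The next is the stretch of 300 bases with the most H3K9ac tags in the Mir290 domain, chr7:3206931-3207230, plus strand, between genes:
Mir290 domain: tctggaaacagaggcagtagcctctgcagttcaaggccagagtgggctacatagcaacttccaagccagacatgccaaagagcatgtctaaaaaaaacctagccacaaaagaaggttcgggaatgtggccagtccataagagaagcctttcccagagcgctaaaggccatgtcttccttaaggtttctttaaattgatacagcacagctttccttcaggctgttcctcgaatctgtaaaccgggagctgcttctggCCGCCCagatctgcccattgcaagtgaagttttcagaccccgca
The Malat1 promoter, 250 bases before to 50 bases after the annotated start, lies at chr19:5802622-5802921 on the minus strand:
Malat1 promoter: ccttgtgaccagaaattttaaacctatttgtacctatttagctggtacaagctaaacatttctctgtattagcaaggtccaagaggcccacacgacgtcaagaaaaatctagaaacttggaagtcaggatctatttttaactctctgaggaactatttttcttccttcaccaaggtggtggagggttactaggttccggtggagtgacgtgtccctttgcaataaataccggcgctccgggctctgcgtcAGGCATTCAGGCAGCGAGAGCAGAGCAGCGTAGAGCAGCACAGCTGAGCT
A stretch upstream of Neat1 with almost no tags, chr19:5845879-5846078, minus strand, is shown for comparison:
Neat1 gap: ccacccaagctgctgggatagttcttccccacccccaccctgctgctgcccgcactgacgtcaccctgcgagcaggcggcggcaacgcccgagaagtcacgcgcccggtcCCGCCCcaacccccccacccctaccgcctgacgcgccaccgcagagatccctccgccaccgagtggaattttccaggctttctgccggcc
The last is the stretch of 300 bases with the most H3K9ac tags in the domain near C330002G04Rik, chr19:23168031-23168330, plus strand, between genes:
C330002G04Rik domain: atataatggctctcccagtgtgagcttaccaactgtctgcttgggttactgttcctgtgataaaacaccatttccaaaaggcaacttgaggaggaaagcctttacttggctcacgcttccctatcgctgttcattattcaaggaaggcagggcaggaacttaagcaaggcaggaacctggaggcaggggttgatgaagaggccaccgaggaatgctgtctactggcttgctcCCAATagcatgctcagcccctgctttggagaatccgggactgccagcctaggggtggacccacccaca
The Neat1 gap, of 200 bases, held a GC box, whereas the Malat1 promoter and the Mir290 hairpin stretch held none of the motifs. TATAAA occurred in 16.2% and the GC box in 30.4% of the 300-base promoters of all genes. The GC box of the Mir290 domain and the CCAAT box of the C330002G04Rik domain compare with 17.8% and 27.6% of 300-base centres of all H3K9ac peaks. The octamer, the CCAAT box and the E box were present in 2.27%, 38.4% and 6.21% of promoters. The Malat1 promoter held 10 CpG dinucleotides, against a median of 6 over all promoters.

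The libraries hold between 19313927 (input) and 23839094 (7G8) tags, that is, deposited positions of mapped reads. Only the 13HH3 library held tags at a position and strand already seen (3.30%), and these were removed. The H3K9ac, 7G8 and input files held 0 such tags. Whether repeats had been taken out of them before deposit is not known, so the libraries cannot be compared in this. At the starts of 6 ES cell genes (Pou5f1, Nanog, Sox2, Zfp42, Esrrb and Tdgf1), 5 had H3K9ac at or above 2-fold over input, at log2 values from 0.01 (Esrrb) to 3.98 (Zfp42). Of 6 fibroblast genes, which could mark feeders, 1 (Fbn1, 1.41) did so and the lowest was -0.17 (Dcn). The median H3K9ac values were 2.92 for the ES cell genes and 0.82 for the fibroblast genes. With each H3K14ac antibody, 3 of the ES cell genes and 0 of the fibroblast genes reached 2-fold. Of all noncoding gene starts, 25.7% reached it with H3K9ac, 8.77% with 13HH3 and 8.31% with 7G8. The share of all coding gene starts was not counted, so the counts of these coding genes have no background of their own kind. H3K9ac peaks numbered 76908, of which 495 were 5 kb or wider and are called wide domains here. These are bulk chromatin data, so a mark on few alleles and a low mark on all alleles cannot be told apart.

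At Mir290 the domain covered 17450 bp (chr7:3198201-3215650), and it ranked 1 among all peaks both by width and by H3K9ac tags over scaled input. It lay upstream of the hairpins, ending 2977 bp before Mir290 and beginning 28997 bp from the start of the coding gene AU018091, in sequence with no annotated gene. The bin in which it begins, chr7:3198001-3198500, has 394 unknown bases, 194 of them in the domain, so this end is uncertain. The domain held 1998 H3K9ac tags, 867 tags of 13HH3, 677 of 7G8 and 116 of input. All 3 ChIP libraries were thus far above input. The log2 ratios over input were 3.84 (3.57 to 4.13) for H3K9ac, 2.74 (2.46 to 3.03) for 13HH3 and 2.24 (1.96 to 2.54) for 7G8. The width depended on the peak call. It was 7700 bp with a Poisson probability of 1e-10 in place of 1e-05, and 9650 bp without a tag shift. With 50% of the tags it was 6750 bp, and with peaks under 1 kb apart joined 27900 bp. Except with peaks joined, the domains of Malat1, Neat1 and C330002G04Rik were wider under each of these settings. They measured 10000, 9700 and 8450 bp at 1e-10. With peaks joined, the Mir290 domain (chr7:3195951-3223850) was the widest of the 4 and covered the hairpins. Rank 1 by width is therefore that of the main call. The rank by tags, counted over the same interval, is likewise that of the main call.

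A second H3K9ac peak of 5250 bp (chr7:3215851-3221100) covered the hairpins, and only 200 bp separated it from the domain. It held 719 H3K9ac tags, 342 of 13HH3, 167 of 7G8 and 47 of input. Per kb, the hairpin peak exceeded the domain 1.20-fold in H3K9ac (1.10 to 1.30) and 1.31-fold in 13HH3 (1.15 to 1.49). With 7G8 the order was turned, at 0.820-fold (0.688 to 0.973). The input ratio of 1.35-fold (0.938 to 1.91) was within counting error, but no smaller than the excess in H3K9ac and 13HH3. The interval of 7G8 did not overlap that of either other antibody. In tags per kb, the 2 antibodies against H3K14ac therefore ranked these neighbouring peaks differently, and the reason was not tested. Relative to input, the hairpin peak was not above the domain in any library. Its log2 ratios over input were 3.67 (3.25 to 4.13) for H3K9ac, 2.70 (2.26 to 3.17) for 13HH3 and 1.53 (1.05 to 2.02) for 7G8.

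The bin with the most tags of the window was chr7:3218001-3218500, just before the first hairpin, with 161 H3K9ac tags, 105 of 13HH3 and 5 of input. This bin had only 19 tags of 7G8, whose highest bin was chr7:3206001-3206500 inside the domain, with 42 tags. The latter bin was also high in the other libraries, with 116 H3K9ac tags, 54 of 13HH3 and 4 of input. Within the domain, the 13HH3 library gave 5 separate peaks that covered 82.5% of it, and the 7G8 library 10 peaks that covered 73.9%.

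**Figure D1:**
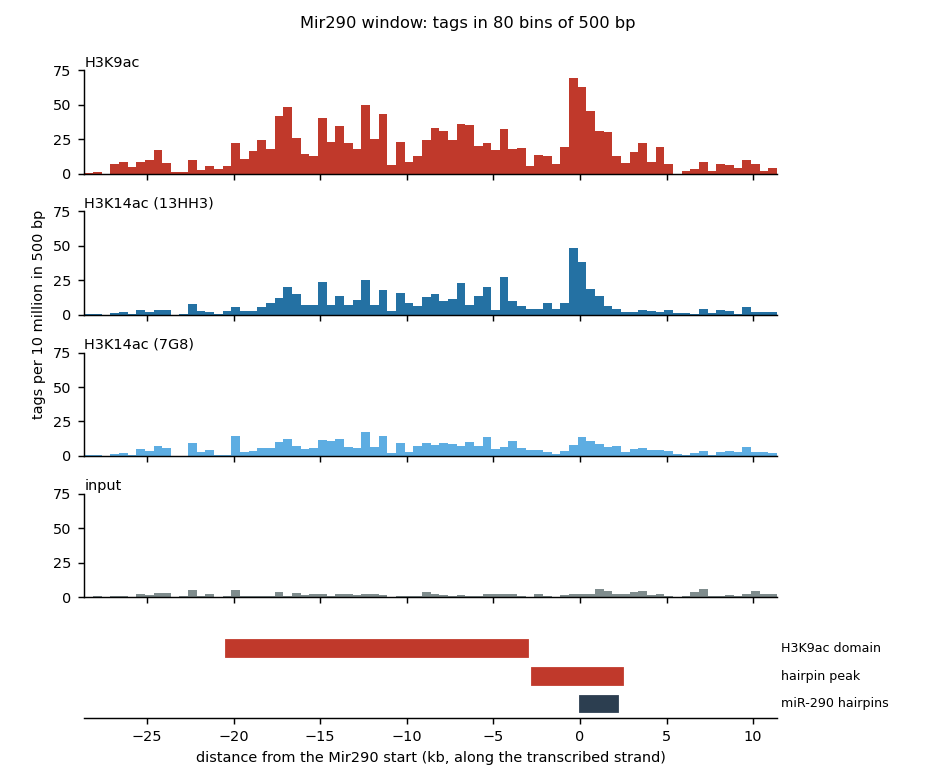
Tags per 10000000 library tags in 80 bins of 500 bp (bars) against the distance from the Mir290 start in kb, for H3K9ac, both H3K14ac antibodies and input on 1 scale. The red boxes are the H3K9ac domain and the hairpin peak, and the dark box is the run of hairpins. H3K9ac and 13HH3 are highest beside the start of the hairpins, at 69.4 and 48.6. The highest 7G8 bin, 17.6, is in the domain, and the bin with the first hairpin has 13.8.

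The Malat1 domain covered 15550 bp (chr19:5796001-5811550), rank 2 by tags over scaled input and rank 3 by width. It included 6671 bp of the 6982 bp gene (chr19:5795690-5802671, minus strand) and reached 8879 bp upstream of the start. It held 1848 H3K9ac tags, 672 of 13HH3, 557 of 7G8 and 145 of input. The log2 ratios over input were 3.41 (3.16 to 3.66), 2.05 (1.79 to 2.32) and 1.64 (1.37 to 1.91) in the order H3K9ac, 13HH3 and 7G8. For both H3K14ac antibodies these were the lowest of the 4 loci, but the intervals overlapped those of Neat1. At a probability of 1e-10 the domain was 10000 bp wide.

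Along Malat1 the marks were unequal. The first 3491 bp of the gene held 695 H3K9ac tags, 235 of 13HH3, 168 of 7G8 and 28 of input, and the last 3491 bp held 238, 50, 85 and 30 in the same order. Input was therefore alike in both parts. The first part exceeded the last 2.92-fold in H3K9ac (2.52 to 3.40), 4.70-fold in 13HH3 (3.45 to 6.51) and 1.98-fold in 7G8 (1.51 to 2.60). In the last part the log2 ratio of 13HH3 over input was 0.57 (-0.11 to 1.28), an interval that includes 0, whereas 7G8 stood at 1.20 (0.58 to 1.85) and H3K9ac at 2.72 (2.17 to 3.32). Per kb, the upstream part of the domain and the gene did not differ beyond counting error in 13HH3 (1.08-fold, 0.921 to 1.26), while H3K9ac was lower upstream (0.781-fold, 0.713 to 0.857).

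The Neat1 domain covered 10750 bp (chr19:5840201-5850950), rank 12 by tags over scaled input. It included the first 5278 bp of the 20771 bp gene (chr19:5824708-5845478, minus strand) and 5472 bp upstream, where it overlapped the noncoding gene Gm9783 and the 3′ end of Frmd8. It held 1273 H3K9ac tags, 668 of 13HH3, 484 of 7G8 and 119 of input. The log2 ratios over input were 3.16 (2.88 to 3.44), 2.33 (2.04 to 2.62) and 1.72 (1.43 to 2.02). H3K9ac was the lowest of the 4 loci relative to input, with an interval that overlapped that of Malat1.

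The short Neat1 transcript (chr19:5842307-5845476) shares its start with the long one. Its 3170 bp held 433 H3K9ac tags, 282 of 13HH3, 175 of 7G8 and 35 of input, and the 17599 bp transcribed only into the long RNA held 705, 520, 487 and 215. Per kb the short transcript exceeded the rest 3.41-fold in H3K9ac (3.02 to 3.85), 3.01-fold in 13HH3 (2.60 to 3.49) and 1.99-fold in 7G8 (1.67 to 2.38), against 0.904-fold in input (0.613 to 1.30). Even the rest of the long transcript remained above input, with log2 ratios of 1.45 (1.23 to 1.68), 1.11 (0.88 to 1.35) and 0.88 (0.64 to 1.11). This stretch includes part of the domain, from chr19:5840201 to 5842306, so the ratios are not those of sequence outside the domain alone.

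The highest 13HH3 bin of the whole Malat1 and Neat1 window was chr19:5845001-5845500, at the start of Neat1, with 99 tags of 13HH3 against 4 of input. The highest H3K9ac bin was in Malat1 instead (chr19:5801001-5801500), with 144 H3K9ac tags against 10 of input, and this was also the highest 7G8 bin, with 45 tags. Between the Malat1 domain and Neat1 (chr19:5811551-5824707), the log2 ratio over input was 1.62 (1.36 to 1.89) for H3K9ac. It was 0.81 (0.52 to 1.10) for 13HH3 and 0.49 (0.19 to 0.79) for 7G8. The Malat1 domain exceeded this stretch per kb 2.84-fold in H3K9ac, 1.95-fold in 13HH3 and 1.83-fold in 7G8. The stretch begins where the H3K9ac call ended, so the excess in H3K9ac is a description.

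**Figure D2:**
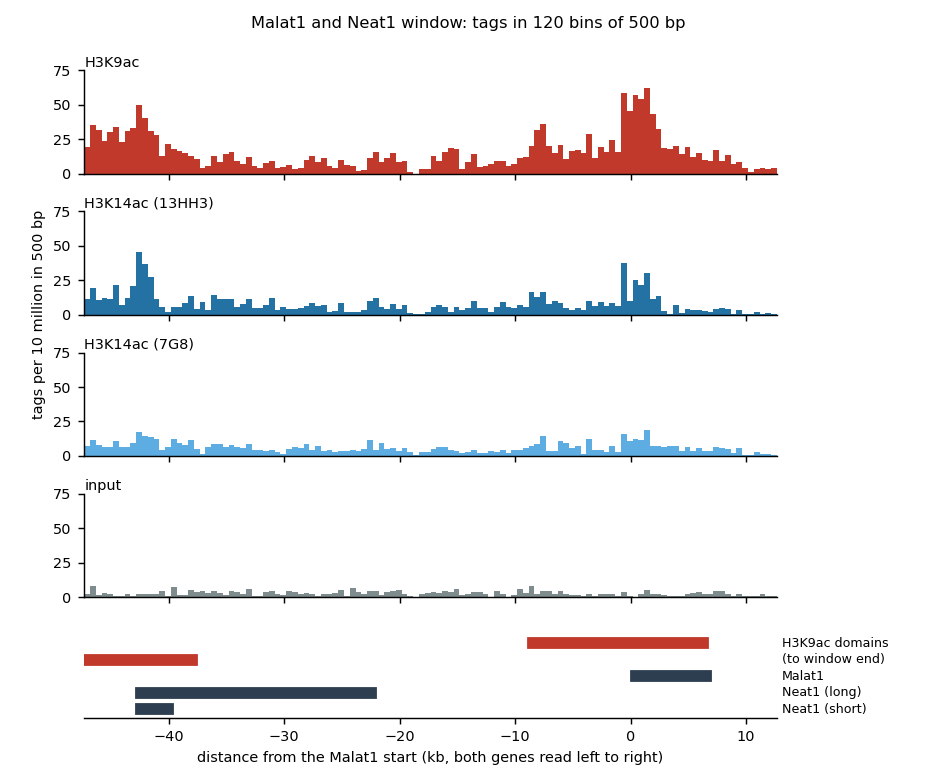
Tags per 10000000 library tags in 120 bins of 500 bp (bars) against the distance from the Malat1 start in kb, with both genes read from left to right and all libraries on 1 scale. Red boxes are the H3K9ac domains (that of Neat1 drawn to the window end) and dark boxes the transcripts. The highest 13HH3 bin, 45.8, stands at the Neat1 start, and the highest H3K9ac bin, 62.1, in Malat1.

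Near C330002G04Rik the domain covered 12400 bp (chr19:23158201-23170600), rank 3 by tags over scaled input and rank 12 by width. It did not touch the gene (chr19:23111880-23150343, minus strand), but began 7858 bp upstream of its start, and it ended 45116 bp from the start of the coding gene Klf9. It held 1623 H3K9ac tags, 603 of 13HH3, 498 of 7G8 and 81 of input. The log2 ratios over input were 4.06 (3.74 to 4.40), 2.73 (2.40 to 3.09) and 2.32 (1.98 to 2.67). The intervals of all 3 overlapped those of the Mir290 domain.

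The start of C330002G04Rik had an H3K9ac peak of its own, 3700 bp wide (chr19:23148151-23151850), with 285 H3K9ac tags, 79 of 13HH3, 106 of 7G8 and 30 of input. Per kb the domain exceeded it 1.70-fold in H3K9ac (1.50 to 1.93), 2.28-fold in 13HH3 (1.80 to 2.92) and 1.40-fold in 7G8 (1.13 to 1.75). Against the gene without its start peak the excess was 5.12-fold (4.72 to 5.55), 2.96-fold (2.64 to 3.33) and 2.32-fold (2.06 to 2.61). The highest H3K9ac bin, with 151 tags, was chr19:23168001-23168500, whereas the highest 13HH3 bin, with 61 tags, was chr19:23163501-23164000. The 6350 bp between the start peak and the domain held only 65, 51, 43 and 20 tags in the order H3K9ac, 13HH3, 7G8 and input, and just 50.7% of the 36-base sequences there occur once in the genome. Low tag numbers in that gap can therefore not be read as absence of the marks. The log2 ratios over input there were 1.44 (0.70 to 2.24) for H3K9ac and 1.19 (0.42 to 2.01) for 13HH3. For 7G8 the ratio was 0.80 (0.004 to 1.64), so each library was above input, 7G8 barely.

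**Figure D3:**
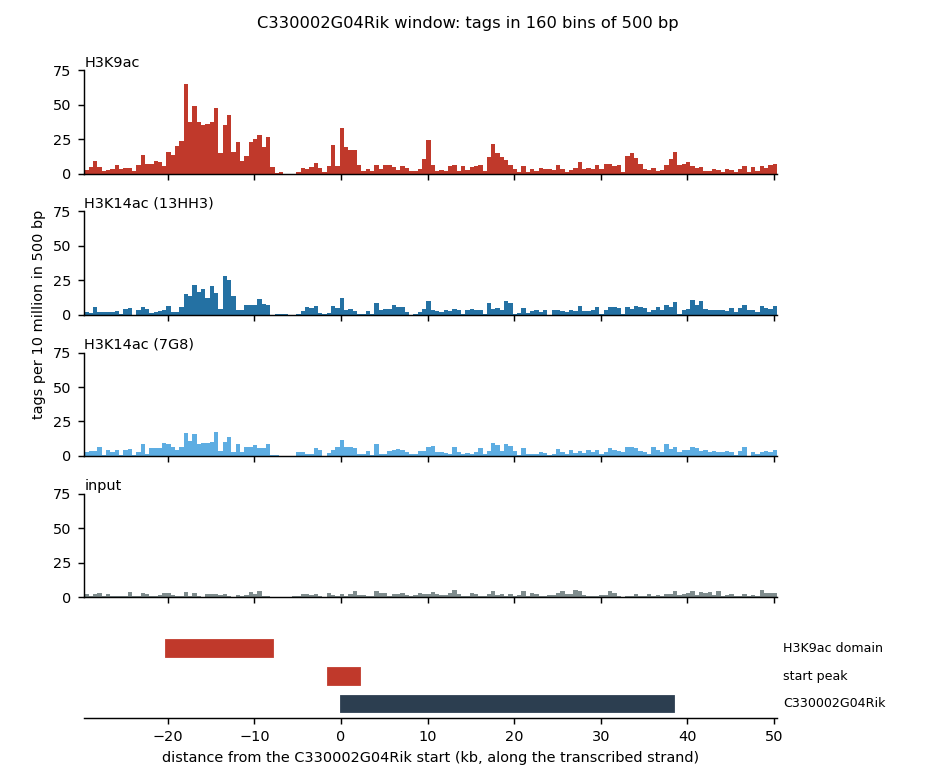
Tags per 10000000 library tags in 160 bins of 500 bp (bars) against the distance from the C330002G04Rik start in kb along the transcribed strand, with all libraries on 1 scale. Red boxes are the domain and the peak over the start, and the dark box is the gene. The highest bins, 65.1 for H3K9ac and 28.2 for 13HH3, lie upstream of the gene in the domain.

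Among the 4 domains, H3K9ac density differed little. It was 56.5 tags per 10000000 library tags and kb at C330002G04Rik (53.7 to 59.3), and 51.3, 51.1 and 49.4 at Malat1, Neat1 and Mir290, whose intervals overlapped one another. The order was another one with 13HH3. Neat1 had 28.7 (26.6 to 31.0), Mir290 23.0 (21.5 to 24.6), C330002G04Rik 22.5 (20.7 to 24.4) and Malat1 20.0 (18.5 to 21.6). Only Neat1 stood apart from its neighbour in this order beyond counting error. With 7G8 the values ran from 15.0 (Malat1) to 18.9 (Neat1). Input ran from 3.38 (C330002G04Rik) to 5.73 (Neat1), so that the domains of the Malat1 and Neat1 pair, with more input tags, were lower over input than their densities alone show.

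All 4 domains were at or above 2-fold over input in both H3K14ac libraries, but so were 76.0% (13HH3) and 80.6% (7G8) of the 495 wide domains, and the count of 4 is near this background. Their position within the wide domains was more varied. By 13HH3 over input Mir290 ranked 4, C330002G04Rik 5, Neat1 24 and Malat1 70 from the highest, with a median of 1.42 over all. By 7G8 over input C330002G04Rik ranked 7, Mir290 10, Neat1 94 and Malat1 126, with a median of 1.35. The same input library enters all these ratios.

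The ratio of H3K14ac to H3K9ac does not use input. With 13HH3 its log2 value was -0.83 (-0.97 to -0.69) in the Neat1 domain, -1.10 (-1.22 to -0.99) at Mir290, -1.33 (-1.47 to -1.19) at C330002G04Rik and -1.36 (-1.49 to -1.23) at Malat1. The median of the wide domains was -1.71 and the upper quartile -1.41. All 4 loci lay above that quartile, but the intervals of C330002G04Rik and Malat1 included it. With 7G8 the values were closer to the median of -1.78, at -1.44 for Neat1, -1.60 for Mir290, -1.74 for C330002G04Rik and -1.77 for Malat1. Only Neat1 lay above the upper quartile of 7G8, -1.55, with an interval that included it (-1.59 to -1.28). The ranks of the 4 were 14, 49, 99 and 112 of 495 with 13HH3 and 83, 151, 224 and 239 with 7G8, in the same order of loci. Since H3K9ac chose the loci and is the denominator, these positions are a description.

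**Figure D4:**
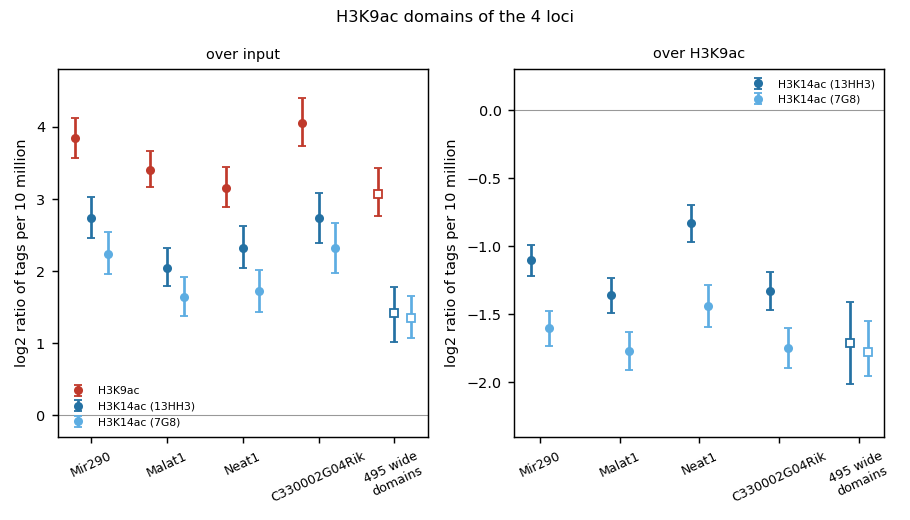
Log2 ratio of tags per 10000000 in the H3K9ac domain of each locus, over input (left) and over H3K9ac (right). Filled circles carry exact 95% counting intervals, and open squares are the median of the 495 wide domains with bars from the first to the third quartile. Neat1 has the highest ratio of 13HH3 to H3K9ac, -0.83, and all 4 loci are above the third quartile of 13HH3 over input, 1.78.

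Around the annotated starts (2 kb on each side), all 4 genes were at or above 2-fold over input in every ChIP library. Of all 9216 noncoding genes, 25.7% reached this level with H3K9ac, which chose the loci, 8.77% with 13HH3 and 8.31% with 7G8. The start of Neat1 held 623 H3K9ac tags, 394 of 13HH3, 214 of 7G8 and 28 of input, which gave it rank 2 among the noncoding genes with 13HH3 and rank 8 with 7G8. The start of Malat1 held 823, 321, 202 and 35 tags and ranked 8 and 28. That of Mir290, taken at its first hairpin, since no start of the primary transcript is annotated, held 642, 316, 138 and 39 tags and ranked 12 and 215. The start of C330002G04Rik, with 282, 79, 105 and 31 tags, ranked 596 and 268. Its log2 ratio over input was 1.19 (0.57 to 1.84) with 13HH3, below the intervals of the other 3 starts.

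Tags were not spread evenly around these starts. At Malat1 the 200 bp just upstream of the start held 20 H3K9ac tags, 3 of 13HH3 and 4 of 7G8, while the 200 bp on its downstream side held 62, 7 and 10 and those centred 300 bp upstream 56, 21 and 18. The dip lies in the Malat1 promoter shown above. At Neat1 the 200 bp centred 500 bp upstream, the gap shown above, held 3 H3K9ac tags, 1 of 13HH3, 1 of 7G8 and 0 of input, between neighbours of 35 and 49 H3K9ac tags. Neat1 had a shallower dip in the bin centred at -1100 bp, with 8 H3K9ac tags, 2 of 13HH3, 2 of 7G8 and 1 of input. Its neighbours held 30 and 33 H3K9ac tags. All 400 read placements that could give a tag in any of these dips are unique in the genome. The Neat1 gap had a GC content of 70%. The input, with at most 5 tags in any 200 bp bin of both profiles, is too shallow to show whether it dips as well. At C330002G04Rik, 51 H3K9ac tags, 22 of 13HH3 and 17 of 7G8 fell in the 200 bp after the start, the highest value of each ChIP library between -3 kb and 3 kb. In the bins centred at -300 and -500 bp of this gene, only 73.75% and 50% of the read placements are unique. At Mir290 no such dip was seen, with 61 and 48 H3K9ac tags on the upstream and downstream side of the first hairpin.

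**Figure D5:**
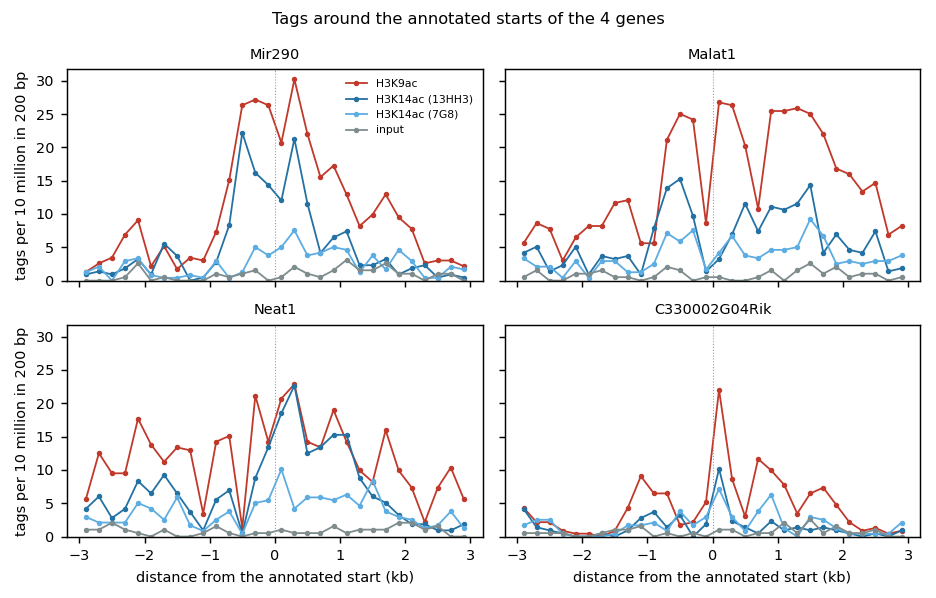
Tags per 10000000 library tags in 200 bp bins (points joined by lines) against the distance from the annotated start in kb, for the 4 genes, upstream to the left. H3K9ac and H3K14ac drop together just upstream of Malat1 and, further out, upstream of Neat1. There H3K9ac falls to 1.29 at -500 bp and to 3.45 at -1100 bp.

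Across the windows, 160 of 360 bins (44.4%) were at or above 2-fold over input with 13HH3 and 156 (43.3%) with 7G8, against 7.72% and 8.61% of all bins of the genome. With H3K9ac, which chose the loci, it was 246 bins (68.3%), against 8.64%. The Mir290 window had 42 and 43 of 80 bins with 13HH3 and 7G8, the Malat1 and Neat1 window 56 and 51 of 120, and the C330002G04Rik window 62 and 62 of 160. Across bins, Spearman's rho of H3K9ac with 13HH3 was 0.84 in the Mir290 window (70 bins without gaps in the sequence), 0.68 in that of Malat1 and Neat1 (120 bins) and 0.67 in that of C330002G04Rik (160 bins). With 7G8 it was 0.85, 0.70 and 0.76. Neighbouring bins are not independent, and rho of H3K9ac with input ran from 0.10 to 0.36. The share of unique 36-base sequences in a bin had rho of 0.55, 0.37 and 0.32 with H3K9ac, in the same order of windows. With input it had 0.55, 0.21 and 0.43. How far this, or anything else the libraries share besides the marks, raised the correlations was not tested. The number of CpG dinucleotides in a bin had rho from 0.28 to 0.42 with H3K9ac. With 13HH3 it ran from 0.22 to 0.52, highest in the Malat1 and Neat1 window, and with 7G8 from 0.18 to 0.36.

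The other genes of the windows and their neighbours are given on a log2 scale with 1 tag per 10000000 added to ChIP and input. Within 2 kb of the start of Gm9783, inside the Neat1 domain, the values were 3.15 for H3K9ac, 2.09 for 13HH3 and 1.52 for 7G8. Gm20417, which lies antisense within Malat1, had 2.70, 0.55 and 1.16. Reads carry no strand of transcription, so that these values cannot be assigned to one gene of an overlapping pair. Among the nearest coding genes, Klf9, a transcription factor gene with its own wide domain, had 3.36, 2.31 and 1.20, and AU018091 had 3.36, 1.66 and 1.74. Frmd8 had 2.23, 0.90 and 0.79. Nlrp12 and Trpm3 were below 2-fold in every library.

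Of 36 other well-known noncoding genes, 24 were annotated. At their starts 13 were at or above 2-fold with H3K9ac, 7 with 13HH3 and 8 with 7G8, with median log2 values of 1.55, 0.38 and 0.64, against 0.12, 0.09 and 0.07 over all noncoding genes. Highest in H3K9ac were the snoRNA host genes Snhg1 (4.13), Snhg3 (3.78) and Gas5 (3.47), and their 13HH3 values of 2.45, 2.17 and 2.03 were below those of Neat1 (3.56), Malat1 (2.97) and Mir290 (2.80) and above that of C330002G04Rik (1.14). In H3K9ac, Snhg1 stood between Malat1 (4.22) and Neat1 (4.12), and Mir290 had 3.71 and C330002G04Rik 2.85. The lowest were Mir155 (-0.40), Rmst (-0.29) and Mirg (-0.25), genes known from lymphocytes, the developing brain and the imprinted Dlk1-Dio3 region.

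The rank of the domains puts the loci among coding genes. Between C330002G04Rik at rank 3 and Neat1 at rank 12 stood 8 other domains, the highest of which covered Dido1 (chr2:180432251-180447800) and Hist1h1c (chr13:23829851-23842650), with 1674 and 1455 H3K9ac tags. The domain after Neat1 lay at the noncoding gene Gm11019 (chr13:98251251-98260800) with 1205 H3K9ac tags, against 1273 in the Neat1 domain. No threshold therefore separates the chosen loci from the rest.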

How the data were processed

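Chromatin of mES cells was sequenced after immunoprecipitation, with input as control. The authors aligned single reads of 36 bases to mm9 with ELAND, 1 mismatch allowed. Each deposited line gives the position and strand of a mapped read (tag). The deposited score column holds nothing but 1 and was left aside, and the positions are not normalized. One tag per position and strand was kept, 5′ ends were shifted by 100 bp, and tags were counted per 10000000 tags of the library. The library totals range from 19313927 to 23839094 and set the counting error. Peaks were windows of 400 bp, moved in steps of 50 bp, above a Poisson rate at 1e-05, set by the genome mean or the scaled input in 1, 5 or 10 kb, whichever was highest. Ratios carry exact conditional binomial 95% intervals. Bins and starts were compared with 1 tag per 10000000 added. GENCODE vM1 and the NCBIM37 sequence (mm9) were used. Unique 36-base sequences were counted over the whole genome. The caller and the intervals were tested on simulated data. The members, gene lists, motifs and marker genes were chosen with earlier results of these data known, and the dips and stretches shown were chosen after their values were seen. Named genes are the members, genes with a start in a window, the nearest coding genes, the ES cell and fibroblast markers, the 3 highest and 3 lowest of the noncoding list and the domains next in rank. Alternatives were tried for bin size, pseudocount, fold, repeats, shift, scaling, unique sequence, region, threshold and depth. Python 3.11.15, numpy 2.4.6, scipy 1.17.1, numba and matplotlib 3.10.9 were used. Some items that these rules name are not reported here. Published data sets and the expression data of the study were not used here.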

Additional observations from a re-analysis of the deposited data

How the results depend on the processing

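No paired analysis was possible because each antibody has 1 library. Of 170 alternative values for the widths, ratios and shares, 121 stayed within the counting error or 1.5 times of the value reported and 49 moved. None of the log2 ratios changed sign, and widths and shares cannot do so. A 3-fold limit left 27.2% of the window bins with 13HH3 and 22.5% with 7G8, against 1.80% and 1.86% of all bins, and 15.4%, 2.40% and 1.66% of noncoding starts with H3K9ac, 13HH3 and 7G8. The Mir290 domain was 7700 bp at 1e-10, 27900 bp with peaks under 1 kb apart joined, 9650 bp without a shift and 6750 bp with 50% of the tags, so its width depends on small gaps. At 1e-10 the Malat1 domain was 10000 bp, with log2 ratios over input of 3.99, 2.57 and 2.08 (H3K9ac, 13HH3, 7G8), and scaling by tags outside peaks gave 3.69 for H3K9ac. With the gene and 2 kb on each side in place of the domain, ratios over input were 1.50 for 7G8 at Mir290, 2.14, 1.62 and 1.17 at Neat1, and 1.69, 0.91 and 0.90 at C330002G04Rik, whose domain lies outside the gene. For the log2 ratios of H3K14ac to H3K9ac, in the order Mir290, Malat1, Neat1 and C330002G04Rik, 13HH3 gave -1.27, -1.53, -1.0 and -1.50 scaled outside peaks, -1.23, -1.62, -0.98 and -1.47 with input subtracted, -0.94, -1.49, -0.52 and -0.77 over the genes, and with 7G8 in its place the ratios were -1.60, -1.77, -1.44 and -1.74. For 7G8 they were -1.81, -1.97, -1.64 and -1.95 scaled outside peaks and -1.84, -2.19, -1.79 and -1.98 with input subtracted. Over the genes 7G8 gave -2.26 at Mir290, -0.97 at Neat1 and -0.78 at C330002G04Rik. Scaling outside peaks on the chromosome of each locus was added after seeing the data and kept all ratios over input within their counting error. With repeats kept, 13HH3 gave -0.69 at Neat1. The causes were not tested beyond what each alternative changes. Few input tags per bin, and sequence that occurs more than once, limit what a single bin can show.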
